A study of Homo sapiens with 8 samples.

Results

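The adrenergic receptor genes are described here in CFPAC-1 cells, an established human pancreatic ductal adenocarcinoma line, with and without an introduced ADRA2A gene. The members are 8 genes taken by symbol from the 58870 rows of the deposited table: ADRA1A, ADRA1B, ADRA1D, ADRA2A, ADRA2B, ADRA2C, ADRB1 and ADRB3. They were taken as a family by name, with earlier results of these data known, and any further gene of the family was not analysed here. One group of 4 samples carried an empty vector and the other group of 4 carried an ADRA2A transgene. All 8 samples were untreated and grown for 72 hours in IMDM with 10% FBS and 1% penicillin-streptomycin, so no receptor agonist or antagonist was added in either group. The promoter that drives the transgene, the extent of its insert and whether the cells were a pool or a clone are not given in the sources used here. The labels do not tie the 4 samples of a group to separate cultures, so the p-values below measure the spread between these samples, which may be technical.

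Adrenergic receptors are G protein-coupled receptors for adrenaline and noradrenaline. Alpha-1 receptors act mainly through Gq and phospholipase C, alpha-2 receptors through Gi, which inhibits adenylyl cyclase, and beta receptors through Gs, which stimulates it. In the pancreas, sympathetic nerves and the circulation supply these ligands to islets, ducts and vessels. The title of the study ties ADRA2A to the subtype and aggressiveness of pancreatic cancer, and the comparison shows which transcripts differ once this receptor gene is added.

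The results turn on ADRA2A, which had no reads without the transgene, and ADRA1B, which was read in every library. Their 250 bases before the transcription start are shown to place these 2 endogenous genes, from RefSeq on GRCh38.p14, 5′ to 3′ on the plus strand. The ADRA2A stretch lies at chr10:111076779-111077028 and the ADRA1B stretch at chr5:159916232-159916481. Capitals mark every match on either strand to the letters TATAAA of the TATA box, CACGTG of one kind of E-box, GGGCGG of the GC box, TGACG of the cAMP response half-site and CCAAT of the box of that name.
ADRA2A: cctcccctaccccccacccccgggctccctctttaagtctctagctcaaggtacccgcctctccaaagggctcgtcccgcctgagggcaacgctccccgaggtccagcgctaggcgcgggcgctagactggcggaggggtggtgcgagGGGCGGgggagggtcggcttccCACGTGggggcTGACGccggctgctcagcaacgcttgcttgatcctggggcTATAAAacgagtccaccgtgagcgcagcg
ADRA1B: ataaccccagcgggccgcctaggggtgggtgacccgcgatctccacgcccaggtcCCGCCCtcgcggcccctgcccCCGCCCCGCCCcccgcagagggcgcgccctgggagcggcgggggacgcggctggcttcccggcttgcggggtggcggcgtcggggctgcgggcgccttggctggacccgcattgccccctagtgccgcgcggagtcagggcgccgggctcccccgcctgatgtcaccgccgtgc

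The ADRA2A stretch held 1 TATA box at 29 bases before the start, 1 half-site at 69, 1 E-box at 80 and 1 GC box at 102. Of 35116 RefSeq promoters, 10.7% held the TATA box in the same 250 bases, 21.2% the half-site, 6.34% the E-box, 42.6% the GC box and 32.0% the CCAAT box. The ADRA1B stretch held 3 GC boxes, all on the opposite strand, at 195, 174 and 169 bases before the start, and none of the other letters. The last 2 of these share 1 base and so appear as a single run of capitals. This stretch lies inside the span that GENCODE gives to ADRA1B, which begins further upstream. GC content was 68.8% for ADRA2A and 79.6% for ADRA1B, against a median of 58.0% over all promoters, and CpG numbered 22 and 33 against a median of 11. The RefSeq table had entries for 4 of the 8 genes; the other 2 were ADRA2C, with 84.8% GC, 44 CpG and 1 GC box, and ADRB1, with 72.8% GC, 24 CpG, 1 half-site and 1 CCAAT box. These are matches of letters only and say nothing of binding.

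Library totals ran from 14427035 to 17528915 estimated counts. Of the 58870 genes, 14785 passed the filter on low counts, among them 3 of the 8 receptor genes (ADRA1B, ADRA2A and ADRB1). edgeR's quasi-likelihood test called ADRA2A, the introduced gene, at a Benjamini-Hochberg adjusted p under 0.05. ADRA2A passed the filter through the transgene group alone, so its call and the separation of its groups follow from the design. Of the other 2 genes, 0 were called, against 42.7% of all genes tested (21.6% higher and 21.1% lower with the transgene). The groups overlapped for both ADRA1B and ADRB1, whereas 39.2% of all genes tested had fully separate groups. The other 5 receptor genes had too few reads to test, and 2 of them, ADRA1A and ADRB3, had 0 counts in all 8 libraries.

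**Figure D1:**
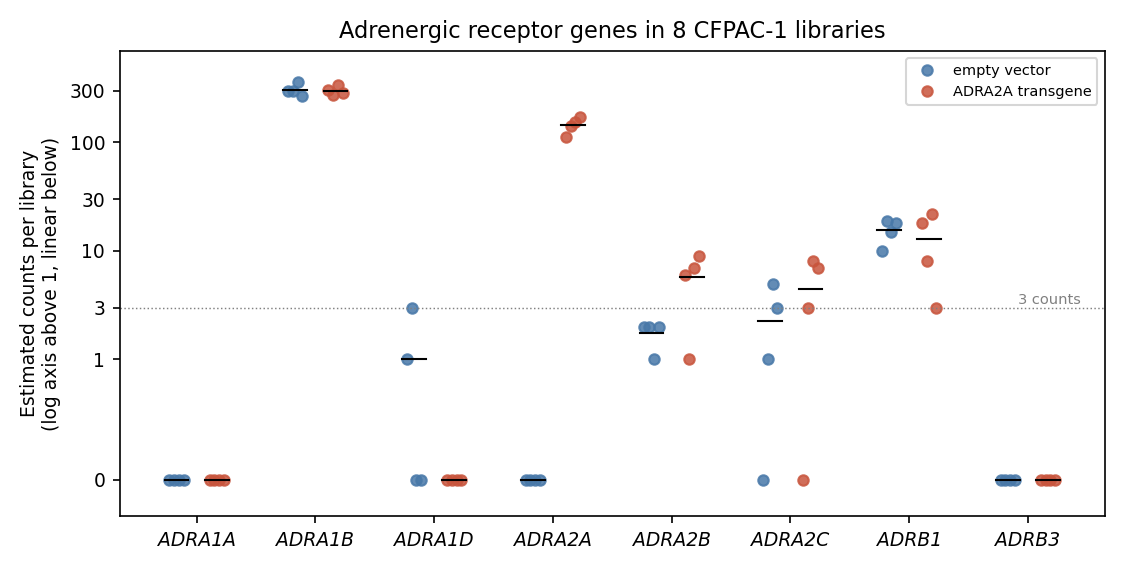
Estimated counts of the 8 adrenergic receptor genes (x axis) in each library (y axis, log above 1 and linear below), with empty-vector libraries in blue, ADRA2A transgene libraries in red group means as black bars (n = 4 each) and a dotted line at 3 counts. ADRA1B lies between 269 and 357 in both groups, ADRA2A goes from 0 to between 112 and 172, and every other gene has at most 22.

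ADRA2A encodes the alpha-2A receptor, the Gi-coupled receptor best known for restraining noradrenaline release from sympathetic endings and insulin release from islets. It had 0 counts in each of the 4 empty-vector libraries. The ADRA2A transgene libraries held 112, 142, 154 and 172 counts for replicates 1 to 4, or 7.75, 9.37, 8.82 and 10.9 CPM (counts per 1000000, with library sizes scaled by TMM factors). The targeted gene thus went with the labels in all 8 libraries, and the groups did not overlap. The mean in the transgene libraries was 9.20 ± 1.30 CPM (SD, n = 4). That was at least 49.1-fold higher than 3 counts per empty-vector library, the limit that a count of 0 allows (0.187 CPM on average). The lowest transgene library was still at least 38.1-fold above the highest of those limits.

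The 4 transgene libraries were close to each other. Their coefficient of variation was 14.2%, where counting alone gives 8.3% at this number of reads. Exact 95% Poisson limits, which cover counting error only, were 92.2 to 135 counts for replicate 1 and 147 to 200 for replicate 4, and these 2 intervals did not overlap. Those of replicates 2 and 3, at 120 to 167 and 131 to 180, overlapped with both. These limits are on counts not scaled by library size, with totals of 14427035 in replicate 1 and 15758073 in replicate 4. They therefore do not compare levels between libraries. The introduced gene was not an abundant transcript: 29.8% of the genes tested had a lower mean CPM in the transgene libraries.

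In GENCODE 44 on hg38, ADRA2A (ENSG00000150594.6) spans chromosome 10 from 111077029 to 111080907 on the plus strand as a single exon. Its 3879 bases hold 968 bases of 5′ UTR, 1395 coding bases and 1516 bases of 3′ UTR with the stop codon. How much of this exon the insert holds is not given in the sources used here, and counts per gene do not show where in the exon the reads fell.

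ADRA2B and ADRA2C encode the other alpha-2 receptors, which also couple to Gi. ADRA2B had 2, 2, 1 and 2 counts in the empty-vector libraries and 6, 1, 7 and 9 in the transgene libraries. Transgene replicate 2 lay at the lowest empty-vector value and the other 3 lay above all of them. The sums were 7 and 23 counts, a ratio of 3.36 with a 95% counting interval of 1.40 to 9.27. ADRA2C had 0, 1, 5 and 3 counts against 0, 3, 8 and 7, with overlapping groups and sums of 9 and 18, a ratio of 2.05 with a counting interval of 0.873 to 5.17.

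Neither gene passed the filter. When all 25002 genes with a count were fitted, 26.2% of them were called, and the receptor genes called were again ADRA2A alone of 6. In that fit the log2 fold change of ADRA2B was 1.67 ± 0.81 (SE; adjusted p by edgeR = 0.127). That of ADRA2C was 0.97 ± 0.83 (SE; adjusted p by edgeR = 0.455). A change of either gene was not detectable at this depth. The counting interval for ADRA2B does not include the spread between libraries, which the edgeR fit does.

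ADRA1B, the Gq-coupled alpha-1B receptor, had the highest CPM of the 8 genes in both groups, on a scale that does not allow for gene length. Its empty-vector libraries had 301, 297, 357 and 269 counts and its transgene libraries 302, 272, 340 and 288. On the CPM scale these were 17.6, 20.2, 20.7 and 17.6 against 20.9, 17.9, 19.5 and 18.2, so the groups covered the same range. The group means were 19.0 ± 1.65 and 19.1 ± 1.35 CPM (SD, n = 4 each). Their log2 fold change was 0.01 with a 95% interval of -0.16 to 0.18 (edgeR adjusted p = 0.955).

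ADRA1B (ENSG00000170214.5; chromosome 5, 159865080 to 159973012, plus strand) overlaps the antisense long non-coding RNA LINC01847 and a pseudogene, GAPDHP40. LINC01847 had 1 count in all 8 libraries together and GAPDHP40 had 0, so almost no reads were assigned to them. ADRA1B took between 92.1% and 95.9% of the counts of the 8 receptor genes in the empty-vector libraries. With the transgene it took between 60.1% and 68.9%, and ADRA2A between 25.6% and 35.9%.

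ADRA1D, the alpha-1D receptor gene, had 1, 3, 0 and 0 counts in the empty-vector libraries and 0 in every transgene library. Both groups were at or under 3 counts per library, so no fold is given. ADRA1A, the alpha-1A receptor gene on chromosome 8, was at 0 throughout, under the floor of 3 counts in a library (0.172 to 0.208 CPM).

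ADRB1, the Gs-coupled beta-1 receptor gene, was read at a low level in every library. The empty-vector libraries had 10, 19, 15 and 18 counts and the transgene libraries 18, 8, 22 and 3. The transgene group held both the highest and the lowest count, whereas on the CPM scale the highest value was 1.29 in empty-vector replicate 2, against 1.26 in the highest transgene library. Mean CPM was 0.981 ± 0.317 and 0.806 ± 0.534 (SD, n = 4 each), with coefficients of variation of 32.4% and 66.3%. Their log2 fold change was -0.26 with a 95% interval of -1.16 to 0.63 (edgeR adjusted p = 0.657). Without transgene replicate 4, which had 3 counts (exact 95% Poisson limits 0.619 to 8.77), it was 0.06.

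The interval for ADRB1 is wide, and its lower end lies beyond a 2-fold fall. ADRB1 (ENSG00000043591.5; chromosome 10, 114043866 to 114046904, plus strand) also has a single exon and starts 2967 kb from ADRA2A. ADRB3, the beta-3 receptor gene best known from fat cells, had 0 counts in all 8 libraries.

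To compare levels between genes, CPM was divided by length. With all annotated exons as the length, the transgene libraries held 6.08 ± 0.429 CPM per kilobase of ADRA1B, 2.37 ± 0.336 of ADRA2A and 0.265 ± 0.176 of ADRB1 (SD, n = 4 each). The ranges of these 3 genes did not overlap. With the 1.40 kb of ADRA2A coding sequence as its length, its level was 6.60 ± 0.934 CPM per kilobase, and its libraries at 5.56 to 7.80 overlapped those of ADRA1B over all exons at 5.70 to 6.64. With coding sequence as the length of both genes, ADRA1B was at 12.3 ± 0.866 CPM per kilobase and the ranges were again apart. The distance between ADRA1B and ADRA2A therefore depends on the length used, and the length of the insert is not given. ADRA2B at 0.0982 ± 0.0574 and ADRA2C at 0.126 ± 0.100 CPM per kilobase over all exons did not differ beyond their spread in the transgene libraries, and both overlapped ADRB1.

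In the empty-vector libraries the order was ADRA1B at 6.05 ± 0.525, ADRB1 at 0.323 ± 0.104, ADRA2C at 0.0636 ± 0.0596, ADRA2B at 0.0299 ± 0.00968 and ADRA1D at 0.0218 ± 0.0320 CPM per kilobase over all exons (SD, n = 4 each). The last 3 did not differ beyond their spread. ADRA1B and ADRB1 were separate from each other and from these 3 in every library.

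**Figure D2:**
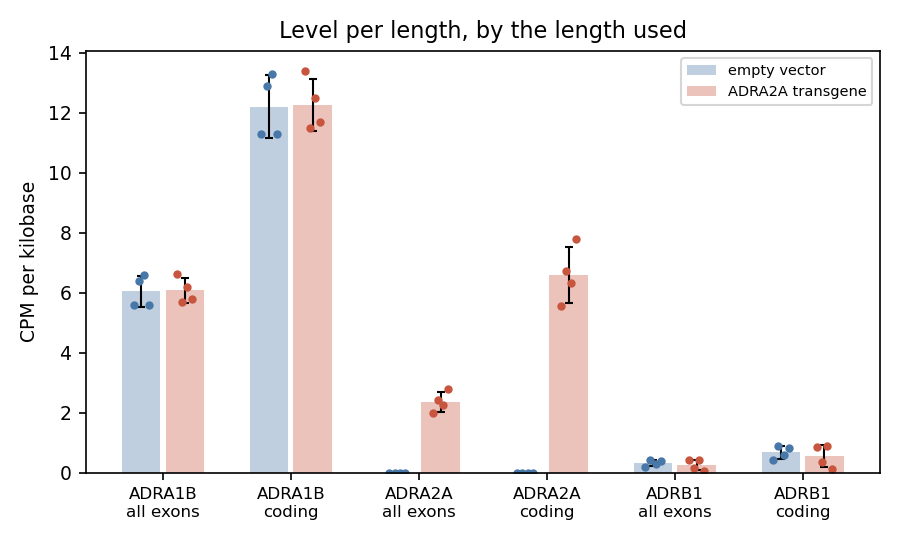
Level per length (y axis, CPM per kilobase) of ADRA1B, ADRA2A and ADRB1, with all exons or the coding part as the length (x axis). Bars are group means, error bars SD and points the 4 libraries of each group, blue for empty vector and red for the transgene; ADRA2A rises from 2.37 to 6.60 in the transgene libraries when the shorter length is used.

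The genes around the endogenous ADRA2A locus did not share its pattern. Of 28 genes in the table that start within 1 Mb of it, 9 were tested, all before it in the coordinates, and 15 had 0 counts. With the transgene 1 was called higher and 3 lower, and the median log2 fold change of the 9 was 0.01. A call in 4 of 9 is near the 42.7% of all genes tested, so the calls below describe single genes and not the locus. DUSP5, a phosphatase of ERK, fell to 19.9 ± 1.26 CPM from 26.9 ± 0.943 (SD, n = 4 each; log2 fold change -0.43 ± 0.07, SE; edgeR adjusted p = 3.44e-05). SMC3, a cohesin subunit gene, had a log2 fold change of -0.15 and SMNDC1, a splicing factor gene, one of -0.14. The nearest tested gene, SHOC2, a scaffold of the RAS pathway whose start lies at -157.7 kb, rose from 61.6 ± 1.70 to 67.5 ± 2.48 CPM (SD, n = 4 each; log2 fold change 0.13 ± 0.05, SE; edgeR adjusted p = 0.0244).

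The SHOC2 call was lost without empty-vector replicate 1, 2 or 4 or transgene replicate 1 (edgeR adjusted p from 0.0526 to 0.0766). That of SMNDC1 was lost without empty-vector replicate 2, 3 or 4 or transgene replicate 2 or 4 (edgeR adjusted p from 0.0736 to 0.153) and with DESeq2 (adjusted p = 0.0578). The count of called neighbours fell from 4 to 2 without empty-vector replicate 4. PDCD4 and its antisense PDCD4-AS1, which overlap in part, had log2 fold changes of 0.11 and 0.20 and were not called, and MXI1, RBM20 and BBIP1 were not called either. PDCD4 was called without empty-vector replicate 2 (edgeR adjusted p = 0.0319) and RBM20 without transgene replicate 2 (edgeR adjusted p = 0.0495).

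**Figure D3:**
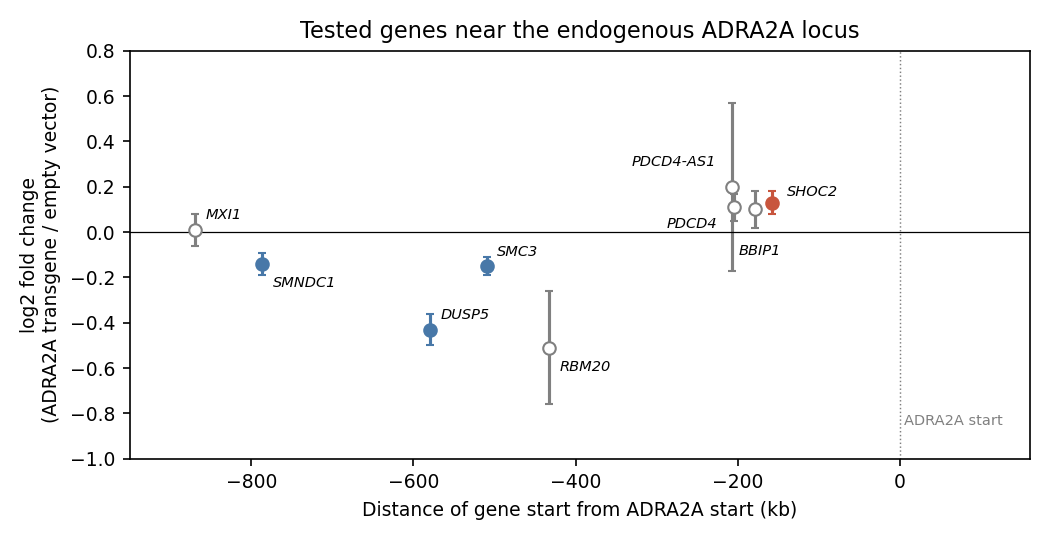
log2 fold change with its SE (y axis) of the 9 tested genes within 1 Mb of ADRA2A, by distance of their start from that of ADRA2A (x axis, kb). Filled red was called higher, filled blue called lower and open grey not called; all 9 lie between -0.51 and 0.20.

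Genes with the same off-to-on pattern as ADRA2A were few. Apart from ADRA2A, 2 genes had at most 3 counts in every empty-vector library and at least 10 in every transgene library, and 7 genes had the reverse. HEPH, which encodes the ferroxidase hephaestin (chromosome X, 66162671 to 66268867, plus strand), had 0 counts in all 4 empty-vector libraries. Its transgene libraries had 23, 13, 17 and 20 counts, or 1.17 ± 0.328 CPM (SD, n = 4), 6.25-fold above the floor of 3 counts per empty-vector library. LGALS2, which encodes galectin-2, lies on chromosome 22 (37570248 to 37582616, minus strand). It had 2, 3, 0 and 3 counts against 18, 14, 22 and 30, a ratio of summed counts of 10.7. As a description of likeness, Pearson's r with ADRA2A on log2(CPM + 1) over the 8 libraries was 0.97 for HEPH and 0.96 for LGALS2. Both genes were chosen for this difference between the groups, which by itself gives a high ratio and a high r, so no test is given.

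Around the receptors, 117 genes of 9 lists were followed from ligand to effector. Of the 63 tested, 18 were called higher and 16 lower with the transgene (54.0%, against 42.7% of all genes tested), and their median log2 fold change was 0.00, as over all genes. The calls in each list below stand beside the same 42.7%, and groups without overlap beside 39.2% of all genes tested. No list was tested as a set.

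The ligand side had little machinery for making noradrenaline. Of 15 genes for the synthesis, storage, uptake and breakdown of catecholamines 7 were tested, 3 were called higher and 0 lower, and the median log2 fold change was 0.27. The 42.9% called is near the 42.7% of all genes tested, so the calls describe single genes and not the list. DBH, the enzyme that makes noradrenaline, and SLC6A2, the neuronal noradrenaline transporter, had 0 counts in all libraries. TH, the rate-limiting enzyme of catecholamine synthesis, had 3, 3, 9 and 6 counts in the empty-vector libraries and 0, 0, 1 and 2 in the transgene libraries. It did not pass the filter, and in the fit of all genes with a count its log2 fold change was -2.59 (edgeR adjusted p = 0.0345). PNMT, which turns noradrenaline into adrenaline, rose from 0.629 to 1.24 CPM on average (log2 fold change 0.97 ± 0.32, SE; edgeR adjusted p = 0.0198), and the call was lost without empty-vector replicate 2 or 4 or transgene replicate 3 (adjusted p from 0.0575 to 0.0898).

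Uptake and breakdown genes were expressed at higher levels. SLC22A3, the extraneuronal monoamine transporter, had 47.5, 45.7, 43.8 and 45.7 CPM in the empty-vector libraries and 56.7, 51.7, 49.1 and 62.9 in the transgene libraries. All 4 transgene libraries lay above the other group (log2 fold change 0.27 ± 0.06, SE; edgeR adjusted p = 0.00215). MAOB, a monoamine oxidase gene, rose to 8.34 ± 0.753 CPM from 6.45 ± 0.568 (SD, n = 4 each; edgeR adjusted p = 0.0165). MAOA, DDC and SLC29A4 were not called.

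Of the 5 Gi/o/z genes 3 were tested and 1 was called: GNAI1 rose from 57.9 ± 1.61 to 65.0 ± 1.70 CPM (SD, n = 4 each; log2 fold change 0.17 ± 0.04, SE; edgeR adjusted p = 0.00463). GNAI2 had 153 ± 2.89 and 158 ± 2.66 CPM and GNAI3 178 ± 5.02 and 171 ± 3.0 CPM (SD, n = 4 each), neither called. Of the 2 Gs genes GNAS was called, at 1004 ± 31.1 and 918 ± 16.7 CPM (SD, n = 4 each; log2 fold change -0.13 ± 0.03, SE; edgeR adjusted p = 0.00167), and GNAL was not. Of the 4 Gq genes GNAQ was called higher (log2 fold change 0.15; edgeR adjusted p = 0.0337). That call was lost with upper quartile factors (adjusted p = 0.0562) and without empty-vector replicate 2 or 3 or transgene replicate 2 or 4 (adjusted p from 0.0603 to 0.13).

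The adenylyl cyclases, transmembrane and soluble and not all inhibited by Gi, held the largest rise of the 9 lists. Of 10 genes 7 were tested, 4 were called higher and 1 lower, and the median log2 fold change was 0.27. ADCY5, a cyclase inhibited by Gi, had 4.16, 4.00, 3.20 and 5.43 CPM in the empty-vector libraries and 16.8, 15.4, 13.9 and 16.4 in the transgene libraries. Every transgene library was above every empty-vector library (log2 fold change 1.90 ± 0.13, SE; edgeR adjusted p = 4.38e-10). ADCY4 rose from 1.47 ± 0.580 to 3.75 ± 0.669 CPM (SD, n = 4 each; log2 fold change 1.35 ± 0.26, SE; edgeR adjusted p = 3.16e-04). ADCY1 fell from 1.25 ± 0.196 to 0.654 ± 0.255 CPM (SD, n = 4 each; log2 fold change -0.93 ± 0.33, SE; edgeR adjusted p = 0.0276), a call lost with DESeq2 (adjusted p = 0.0552), without the filter (adjusted p = 0.059) and without empty-vector replicate 1, 2 or 4 or transgene replicate 2 or 4 (adjusted p from 0.0512 to 0.0908). ADCY6, the most abundant of them at 67.3 ± 3.78 and 81.0 ± 4.56 CPM (SD, n = 4 each), and ADCY9 were also called higher. ADCY3 and ADCY7 were not called, with log2 fold changes of 0.06 and -0.05 (edgeR adjusted p = 0.35 and 0.657).

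Among phospholipase C beta and Gi-gated potassium channel genes 3 of 8 were tested. PLCB2 was called higher (log2 fold change 0.15; edgeR adjusted p = 0.0222) and PLCB3, an effector of Gq, lower (log2 fold change -0.23 ± 0.06, SE; edgeR adjusted p = 0.00237). The PLCB2 call was lost without empty-vector replicate 2 or 3 or transgene replicate 4 (edgeR adjusted p from 0.0581 to 0.0807). PLCB1 and the channel genes KCNJ3, KCNJ5, KCNJ6 and KCNJ9 had too few reads to test.

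All 21 genes of receptor kinases, arrestins and proteins that bind or traffic adrenergic receptors were tested, with 5 called higher, 7 lower and a median log2 fold change of 0.00. The share called was 57.1%, against 42.7% of all genes tested. AKAP12, a scaffold that holds protein kinase A, had 157, 161, 156 and 152 CPM without the transgene and 55.8, 52.9, 44.4 and 53.6 with it. The groups were far apart (log2 fold change -1.60 ± 0.05, SE; edgeR adjusted p = 2.26e-14). ARRDC3, which encodes an alpha-arrestin, rose to 126 ± 5.68 CPM from 85.6 ± 5.45 (SD, n = 4 each; log2 fold change 0.56 ± 0.05, SE; edgeR adjusted p = 1.59e-08). UCHL1, a deubiquitinase, fell by 0.59 ± 0.12 on the log2 scale (SE; edgeR adjusted p = 4.47e-04).

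Among the kinases and arrestins that switch off active receptors, GRK2 had 196 ± 6.34 and 180 ± 1.91 CPM (SD, n = 4 each; log2 fold change -0.12; edgeR adjusted p = 0.0104), and GRK3, GRK4, GRK5 and GRK6 were not called. The arrestin genes ARRB1 (log2 fold change 0.26; edgeR adjusted p = 2.46e-04) and ARRB2 (log2 fold change 0.23; edgeR adjusted p = 0.0257) were called higher.

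RGS proteins speed GTP hydrolysis on G protein alpha subunits and so shorten their signal. Of 20 genes 12 were tested, 3 were called higher and 4 lower, with a median log2 fold change of -0.23. RGS4, which acts on Gi and Gq, had 13.1, 10.8, 14.5 and 12.9 CPM in the empty-vector libraries and 8.58, 6.20, 6.13 and 5.0 in the transgene libraries, without overlap (log2 fold change -0.99 ± 0.14, SE; edgeR adjusted p = 6.54e-06). RGS20 fell from 5.30 ± 0.505 to 1.89 ± 0.610 CPM (SD, n = 4 each; edgeR adjusted p = 9.06e-06). RGS7 fell by 1.31 ± 0.44 on the log2 scale (SE; edgeR adjusted p = 0.0221), a call lost without empty-vector replicate 2 or transgene replicate 1 or 3 (adjusted p from 0.077 to 0.0959). In the other direction, RGS2, the most abundant of the list and an inhibitor of Gq signalling, rose to 402 ± 11 CPM from 291 ± 7.94 (SD, n = 4 each; edgeR adjusted p = 1.07e-09), and the list's summed level was 437 to 452 CPM in the empty-vector and 544 to 572 CPM in the transgene libraries.

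**Figure D4:**
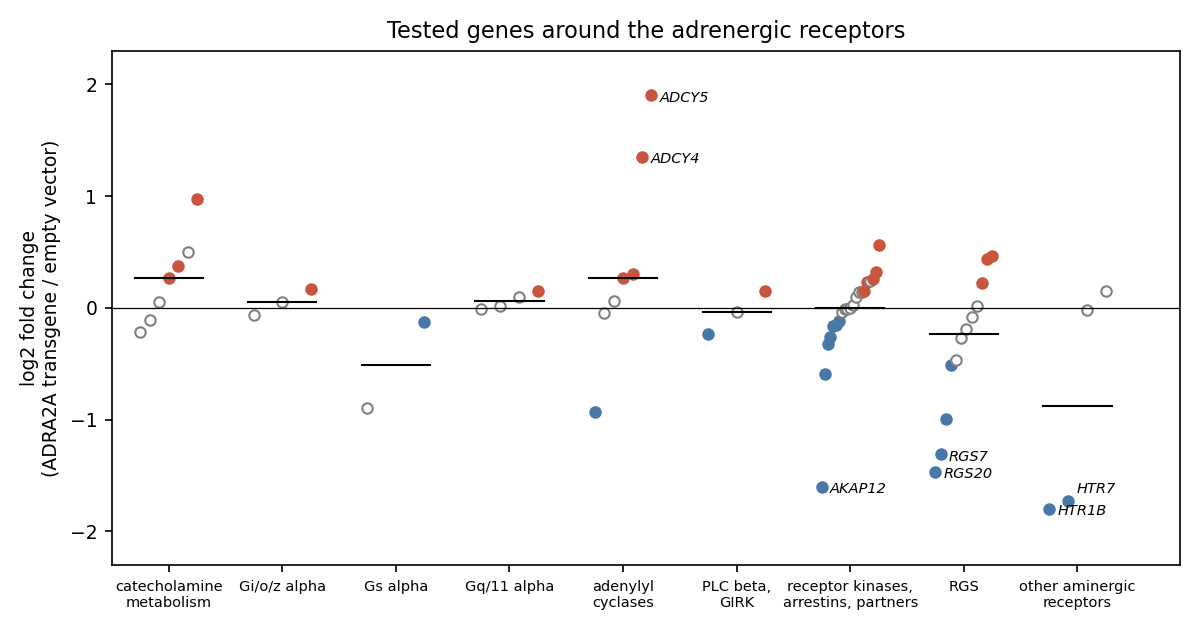
log2 fold change (y axis, transgene over empty vector) of the tested genes of 9 lists (x axis). Filled red was called higher, filled blue called lower, open grey not called, and black bars are medians. ADCY5 at 1.90 is the highest point and HTR1B at -1.80, from 2 to 9 counts per transgene library, the lowest.

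The other receptors for amines were mostly silent. Of 32 dopamine, serotonin, histamine, muscarinic and trace amine receptor genes 19 had 0 counts in all libraries and 4 were tested. The Gi-coupled serotonin receptor gene HTR1B fell from 1.24 ± 0.356 to 0.354 ± 0.203 CPM (SD, n = 4 each; log2 fold change -1.80 ± 0.40, SE; edgeR adjusted p = 0.00112). Its transgene libraries held only 9, 2, 6 and 5 counts, so the size of this fall is limited by depth. HTR7, a Gs-coupled serotonin receptor gene, had 2.28, 1.70, 1.92 and 1.51 CPM without the transgene and 0.346, 0.396, 0.744 and 0.696 with it (log2 fold change -1.73 ± 0.31, SE; edgeR adjusted p = 1.63e-04). HRH1 at 17.3 ± 1.14 and 19.2 ± 1.13 CPM and HTR1D at 4.52 ± 0.825 and 4.44 ± 0.303 CPM (SD, n = 4 each) were not called.

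The defining markers of ductal cells were present. All 10 ductal markers were read, KRT19, KRT7, KRT8 and EPCAM among them, with summed levels of 12214 to 12791 CPM in the empty-vector and 12153 to 13209 CPM in the transgene libraries. Of these, 4 were called higher and 4 lower, KRT8 was not called and CFTR did not pass the filter. The share called was 88.9% of the 9 tested, against 42.7% of all genes tested. The called log2 fold changes ran in size from -0.09 for KRT18, at 2529 and 2375 CPM on average, to 0.79 for MUC1. At such abundance even small shifts were called, so the share is not read as a result about the markers. Markers of acinar, islet and smooth muscle cells summed to at most 0.792 CPM, fibroblast markers to at most 2.16 and endothelial markers to at most 3.67 in any library. Of the endothelial markers PECAM1 rose from 0.773 to 2.44 CPM and KDR fell from 1.23 to 0.482 (edgeR adjusted p = 8.12e-05 and 0.00234), with CDH5 at 1 count in all. Fat cell markers, which matter for beta receptors, summed to 3.83 to 4.21 and 4.24 to 5.74 CPM with ADIPOQ and LEP at 0. Most of this was LIPE, with means of 3.55 and 4.22 CPM and not called. CIDEC did not pass the filter and rose from 0.216 to 0.662 CPM without overlap. Sympathetic and chromaffin markers summed to 1.29 to 1.86 and 1.52 to 2.70 CPM with DBH and CHGA at 0. Most of this was SYP, with means of 1.23 and 1.94 CPM, separate groups and no call (edgeR adjusted p = 0.0524). Leukocyte markers summed to 88.4 to 95.0 and 108 to 119 CPM, nearly all CD68, a lysosomal protein gene that rose from 91.6 to 114 CPM, with CD3E at 0. The part of these shifts in the results above was not tested.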

How the data were processed

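RNA of 8 CFPAC-1 samples was read on a NextSeq instrument (labels' protocols). The deposited table holds the authors' estimated counts for each gene, and cutadapt, STAR, RSEM and DESeq2 with hg38 are listed per the submitters' processing notes. The annotation release and use of strand are not given in the sources used here. Estimated counts were rounded, and groups came from the sample titles. edgeR 4.0.16 (R 4.3.3) tested all genes passing filterByExpr, with TMM factors, the quasi-likelihood test and Benjamini-Hochberg adjustment over 14785 genes (threshold 0.05). An SE is the absolute log2 fold change divided by the square root of F. The fit was tested on simulated data with fewer changed genes, and larger changes than many called here, so that test does not bear on small fold changes. Positions and lengths came from GENCODE 44, which matched 58517 genes.

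The members and lists were chosen with earlier results of these data known. Named were all 8 members, up to 3 called genes per list by absolute log2 fold change, with the Gi subunits, cyclases, receptor kinases and arrestins tested, all tested genes within 1 Mb of ADRA2A, and up to 5 genes of like pattern, of which 2 existed. Further list genes (among them TH, HRH1 and RGS2) were picked with their values in view. Alternatives were DESeq2 1.42.0, limma 3.58.1 voom, RLE and upper quartile factors, 2 other filters, a replicate block and leaving out each library. Replicates of a group differed beyond counting noise. Same-numbered samples are not stated to share a culture or day. Some genes of the lists are not reported here.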

Additional observations from a re-analysis of the deposited data

Results flagged for a closer look

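In 3 genes 1 library stood apart from the other 3 of its group by the gap relative to the group's range. MAOB had 7.22 CPM in ADRA2A transgene replicate 3, where the other 3 lay between 8.65 and 8.78. ARRDC3 had 77.5 CPM in empty-vector replicate 3, against 87.5 to 89.4 in the others. SMC3 had 182 CPM in empty-vector replicate 4, against 171 to 173. These are 3 of 69 groups tested, where chance flags about 1 in 20, and no receptor gene was flagged.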

How the results depend on the processing

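ADRA2A was called under all 7 other settings and in all 8 fits that each left out 1 library. As the introduced gene, with 0 counts in every empty-vector library, it could not have come out otherwise, so these calls are no support. Its fitted log2 fold changes were 10.11 to 10.29 over those 8 fits. The fitted value was 8.20 with limma voom and 9.65 with DESeq2 against 10.2, and none of these is a bound. Of the other receptor genes, edgeR called 0, with 0 at an unadjusted p under 0.05 of 2 tested, and DESeq2 also called 0. Without the filter it was 0 of 5, with 1 at an unadjusted p under 0.05 (ADRA2B). The direction of ADRA1B, never called, turned to -0.01 with upper quartile factors and ranged from -0.03 to 0.05 without single libraries; ADRB1 ranged from -0.59 to 0.06, MXI1 from -0.03 to 0.05 (-0.01 with upper quartile factors) and PDCD4-AS1 from 0.00 to 0.60. The count of called neighbours ranged from 2 (without empty-vector replicate 4) to 4 and that of called pathway genes from 30 to 35 without single libraries. Genes called in all numbered 6314, with 5703 to 6042 without single libraries and 5823 to 6550 under the other settings. With the replicate block 6400 genes were called; same-numbered samples correlated by -0.05 to 0.072, 1 of 4 best with its own number, so the numbers were not used as pairs. Upper quartile factors moved the median of all genes by -0.02. ADRB1 was not fitted with a minimum mean of 50 counts. Genes under about 10 counts per library, which include ADRA2B, ADRA2C and ADRA1D, are limited by depth.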
